A study of Homo sapiens with 32 samples.

Results

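The transcripts described here are 18 long noncoding or formerly noncoding genes whose symbols start with LINC0, measured by RNA sequencing in U2OS cells that differ in the tumour suppressor p53. They were selected on their deposited values, as the rows of the expression matrix with such a symbol that reached a deposited value of 5.4 in at least 4 of the 32 libraries. The matrix held 33 LINC0 rows among 35587. The threshold equals 10.2 normalized counts, that is, counts scaled for library depth. Of the 15 rows that missed it, 13 had some counts, with 11.4 normalized counts as the highest value in any library, and 2 had none. The rule used measured levels, so the levels below are a description. Just inside the threshold stood LINC01835, which reached it in 4 libraries, and LINC00933, which reached it in 8. Just outside stood LINC00431 and LINC01529, which reached it in 1 library each.

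Long intergenic noncoding RNAs are transcribed by RNA polymerase II from stretches between protein-coding genes, are often spliced and polyadenylated, and are usually less abundant than messenger RNAs. LINC symbols are placeholders given to such genes before a function is known, and a gene can lose its symbol when a reading frame, a pseudogene origin or a small RNA within it is recognised. Etoposide causes DNA double-strand breaks through topoisomerase II, after which p53 acts as a tetrameric transcription factor on both coding and noncoding targets.

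U2OS is a human osteosarcoma line with wild-type p53. It was edited with CRISPR-Cas9 to give cells without p53 (KO), cells with the A347D change in 1 allele (HET) and cells with it in both (HOM), which are set here beside the p53 WT/WT cells (WT). Cells of each genotype received DMSO or 20 µM etoposide (ETO) for 24 h, with 4 plates per group and 8 groups in all. The number of edited clones per genotype is not given in the sources used here, so genotype and clone cannot be told apart, and the p-values reflect plate-to-plate spread alone.

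Poly-A RNA gave 18.2 to 24.2 M recovered counts per library, apart from 8.05 M in library 2 of HET in ETO. Of the 8 markers of the osteoblast lineage 7 passed the filter on low values, and the list summed to 38920 to 126400 normalized counts per library. Of the 5 blood markers 1 passed (sum 1.75 to 46.6), of the 4 epithelial markers 3 (26.9 to 231) and of the 3 endothelial markers 3 (97.5 to 358). Libraries 2, 3 and 4 of HOM in DMSO stood apart from library 1 and from the other groups. Their normalized counts summed to 32.02, 36.84 and 47.28 M, against 16.17 to 24.68 M elsewhere, and genes of the mitochondrial DNA took 20.7% to 21.9% of their counts, against 12.5% in library 1. Results that use this group are therefore also given without those 3 libraries. The main fit shares 1 spread per gene over all groups, so these libraries also enter the errors of the other comparisons. Fits of the compared groups alone, among the alternatives below, leave them out where HOM in DMSO is not compared.

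The 2 annotations typed these genes differently. In GENCODE 29, on GRCh38, 14 carried a transcribed pseudogene type, 2 were typed lincRNA (LINC01667 and LINC01869) and 2 protein coding (LINC00672 and LINC02203). The symbol LINC02203 names 2 overlapping GENCODE genes, the shorter of them typed lincRNA, and its type, position and words are those of the longer locus. Of the 1888 GENCODE genes with a LINC0 symbol, 1713 were typed lincRNA. The matrix held only 33 rows with such a symbol, and a comparison list of 36 other named long noncoding RNAs matched 0 rows. The mix of types among the 18 thus describes the rows present, and not the LINC0 genes active in these cells. RefSeq, on GRCh38.p14, gave 14 of the 18 as long noncoding RNA, 2 as protein coding and 2 as transcribed pseudogenes. Of the members, 6 had a new symbol there. LINC00634 was SMIM45, a small integral membrane protein gene, and LINC00672 was LASP1NB, a neighbour of LASP1. LINC01835 was CLEC4OP, a C-type lectin pseudogene, and LINC01869 was TMEM277P, a transmembrane protein pseudogene. LINC00888 was SNHG33, a small nucleolar RNA host gene, and LINC02495 was JAKMIP1-DT, the divergent transcript of JAKMIP1. They are called LINC-named transcripts below. They lie on 11 chromosomes, and their longest annotated transcripts range from 567 to 9678 nt, with a median of 2414.5 nt.

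Much of the sequence of some members recurs elsewhere in the genome, which matters because reads from such stretches cannot be placed by sequence alone. For each gene the share of its distinct 31-base words that also occur in another gene of the matrix was counted. LINC02203 shared 85.6% of its words, LINC01347 77.2%, LINC01881 63.0% and LINC00869 48.8%. LINC01145 shared 4.41% with genes of the matrix but 88.6% with any other GENCODE gene. The values of these 5 genes are therefore uncertain as values of single genes. LINC00674 shared 20.9%, mostly with SMURF2, and LINC00680 18.2%, mostly with GUSBP1. The other 11 shared 10.8% or less, and LINC00634, LINC01835 and LINC01869 shared none.

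**Figure D1:**
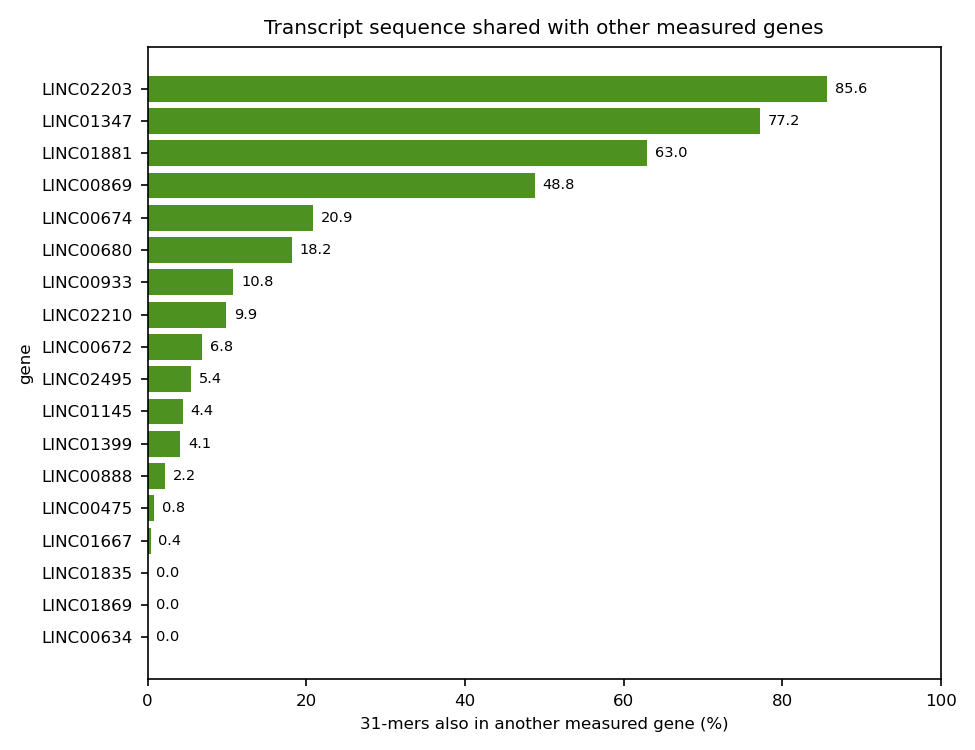
Share of each gene's distinct 31-base words (%, horizontal axis) that also occur in another gene of the matrix, for the 18 LINC-named transcripts (vertical axis). LINC02203 has the longest bar at 85.6%, and 3 genes have none.

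The clearest case is LINC02203 (chr15:21552795-21653276, plus strand), which overlaps the olfactory receptor pseudogene OR11K1P. Of its words 67.5% recur in AC134980.3 (chr15:22015233-22095857, plus strand), and 33.6% in AC135068.3, which it overlaps. A 100-base stretch of both transcripts is shown to make the likeness visible. It differs by 1 base, T88A, counted from 1 at the 5′ end of the stretch with LINC02203 first, and that base is in capitals.
LINC02203: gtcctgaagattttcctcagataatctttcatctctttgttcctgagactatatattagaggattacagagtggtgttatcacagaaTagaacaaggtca
AC134980.3: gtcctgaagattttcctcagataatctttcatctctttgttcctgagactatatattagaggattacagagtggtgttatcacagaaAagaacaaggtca
AC134980.3 was listed at 0 counts in all libraries, while LINC02203 reached 182 normalized counts, and how the quantification split reads between the pair was not tested.

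LINC00475 (chr9:92141298-92160114, plus strand) is shown next because it had the largest rise after etoposide. Its longest transcript, ENST00000416438.6, has 2506 nt in 4 exons, and only 0.839% of the gene's words recur in another measured gene. The first 150 bases of that transcript follow, with no part marked.
LINC00475: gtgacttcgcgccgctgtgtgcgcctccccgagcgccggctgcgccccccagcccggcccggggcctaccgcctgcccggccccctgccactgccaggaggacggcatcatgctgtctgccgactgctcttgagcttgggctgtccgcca

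The promoters of LINC01667 and LINC00634 are printed because the response of these genes differed between KO and WT cells. Each window runs from 250 bases before to 50 bases after the start of the gene in RefSeq (GRCh38.p14), and pairs of letters with the p53 core spacing (CNNG, any 6 bases, CNNG) are in capitals. The RefSeq start of LINC01667 differs from that in GENCODE, so its window lies upstream of the GENCODE locus (chr21:9781918-9814009).
LINC01667, chr21:9821012-9821311, minus strand: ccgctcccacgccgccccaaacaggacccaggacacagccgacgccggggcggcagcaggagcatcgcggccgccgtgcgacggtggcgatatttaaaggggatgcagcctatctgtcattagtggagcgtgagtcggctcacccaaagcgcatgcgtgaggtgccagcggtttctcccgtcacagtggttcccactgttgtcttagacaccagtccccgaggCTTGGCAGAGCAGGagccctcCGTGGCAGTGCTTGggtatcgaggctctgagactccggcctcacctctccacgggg
LINC00634 (SMIM45), chr22:41951900-41952199, plus strand: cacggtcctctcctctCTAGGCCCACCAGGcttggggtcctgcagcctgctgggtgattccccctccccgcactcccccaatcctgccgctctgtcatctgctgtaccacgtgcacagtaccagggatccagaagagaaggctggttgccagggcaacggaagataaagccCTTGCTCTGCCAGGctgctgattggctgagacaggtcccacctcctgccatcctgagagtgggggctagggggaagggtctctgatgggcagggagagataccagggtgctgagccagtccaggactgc
Both windows hold 2 such pairs. The RefSeq table had 13 promoter windows for 10 of the 18 members. Of these 10 members, 9 held at least 1 pair in any of their windows. Among the 35116 promoters in the table, each taken as a single window, 74.0% did. The 2 shares are thus not in like units. The stricter pair (CATG, any 6 bases, CATG) was in 0 of the 10 and in 0.373% of all promoters. The full p53 half-site was likewise in 0 of the 10, and in 6.63% of all. Both strands were searched. A match is a run of letters and not a measured site.

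Levels were compared between genes as normalized counts per kilobase of the longest transcript, averaged over the 8 group means. LINC01145 stood highest at 135 normalized counts per kb, followed by LINC00869 at 122, LINC00888 at 114, LINC00674 at 92.0 and LINC00680 at 70.8. LINC01667 followed at 63.3, LINC01399 at 42.9, LINC00634 at 33.9, LINC02203 at 32.5 and LINC02210 at 20.6. LINC00475 came next at 20.4, and the lowest were LINC02495 at 3.62 and LINC00933 at 3.36. With the median transcript as the length, LINC00869 ranked first and LINC01145 second, and LINC02210 moved from 10 to 3. At the threshold in all 32 libraries were 10 of the 18 members.

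Etoposide raised 5 of the 18 transcripts in WT cells and lowered 1, or 33.3% of the members, where 35.0% of the 16824 genes tested passed (20.1% higher and 14.9% lower). A gene passed with a limma adjusted p under 0.05 and a change of at least 1.5-fold. The share of members is thus near that of all genes. In all 13 comparisons 57 member results passed, and on the deposited variance-stabilized scale, which compresses changes at low counts, 28 of them no longer did. The median log2 change was 0.25 over the members and 0.05 over all genes. The transcripts that rose were LINC00475, LINC01835, LINC01667, LINC00680 and LINC02495, and LINC02203 fell. LINC01835 reached the threshold in WT cells with etoposide alone, so its rise follows from the rule, and the share above counts it.

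LINC00475, a spliced noncoding transcript by RefSeq's type, had 16.2, 14.2, 19.3 and 29.6 normalized counts in the 4 WT DMSO libraries and 154, 123, 126 and 134 with etoposide. The groups do not overlap: every treated library lies far above the highest control. The log2 fold change was 2.75 ± 0.42 (SE, limma, adjusted p 3.29e-06). SPTLC1, a subunit of serine palmitoyltransferase and the nearest measured coding gene, 25914 bp away on the opposite strand, changed by 0.56 and did not pass.

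LINC01667 (chr21:9781918-9814009, minus strand), 1 of the 2 members typed lincRNA, had 75.3, 73.4, 65.7 and 72.5 normalized counts in DMSO and 154, 161, 152 and 155 with etoposide. Replicates of both groups lie close together, and the log2 change was 1.11 ± 0.16 (adjusted p 1.90e-06). LINC00680 (chr6:57946074-57961501, minus strand), a pseudogene related to the beta-glucuronidase gene family, had 127, 135, 151 and 146 in DMSO and 241, 249, 240.4 and 241 with etoposide. It rose by 0.80 ± 0.12 (adjusted p 1.95e-06), and GUSBP1, which shares 16.4% of its words, rose by 0.63.

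LINC02203 went the other way. Its normalized counts were 96.3, 160.2, 125 and 112 in DMSO and 40.3, 29.1, 31.4 and 39.5 with etoposide, with no overlap, a log2 change of -1.77 ± 0.27 (adjusted p 2.55e-06). AC135068.3, which overlaps it on the same strand, changed by -1.60 and did not pass. LINC02495 (chr4:6200733-6239937, plus strand) had 10.5, 8.85, 20.3 and 7.15 in DMSO and 25.2, 15.1, 20.0 and 15.4 with etoposide, and the groups overlap. Its call (0.72 ± 0.28, adjusted p 3.50e-02) was lost without library 1, 2 or 4 in DMSO or library 1 or 3 in ETO, with values of 0.54 to 0.71. It was also lost with no filter on low values, with the compared groups alone, with a pseudocount of 5 (0.56), on the deposited scale (0.28) and with quantile normalization (0.26, adjusted p 0.497). C4orf50, an uncharacterised coding gene whose start lies 178 bp away on the opposite strand, rose by 3.17 in the same cells.

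LINC01835 (chr19:15851993-15864904, minus strand), the C-type lectin pseudogene, owes its place to WT cells with etoposide, the sole group in which it reached the threshold, so its differences from that group are a description. It had 2.86, 2.65, 7.72 and 5.11 normalized counts in WT DMSO and 21.8, 18.1, 29.6 and 24.1 in WT ETO. Outside that group no library exceeded 8.96. With etoposide the other genotypes had means of 2.20 ± 1.79 (KO), 4.39 ± 1.95 (HET) and 1.59 ± 0.895 (HOM; SD, n = 4). CYP4F2, a fatty acid omega-hydroxylase gene 13119 bp away on the same strand, rose by 4.21 in WT and by 1.74 in HET, and its changes of 0.07 in KO and 0.79 in HOM did not pass.

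**Figure D2:**
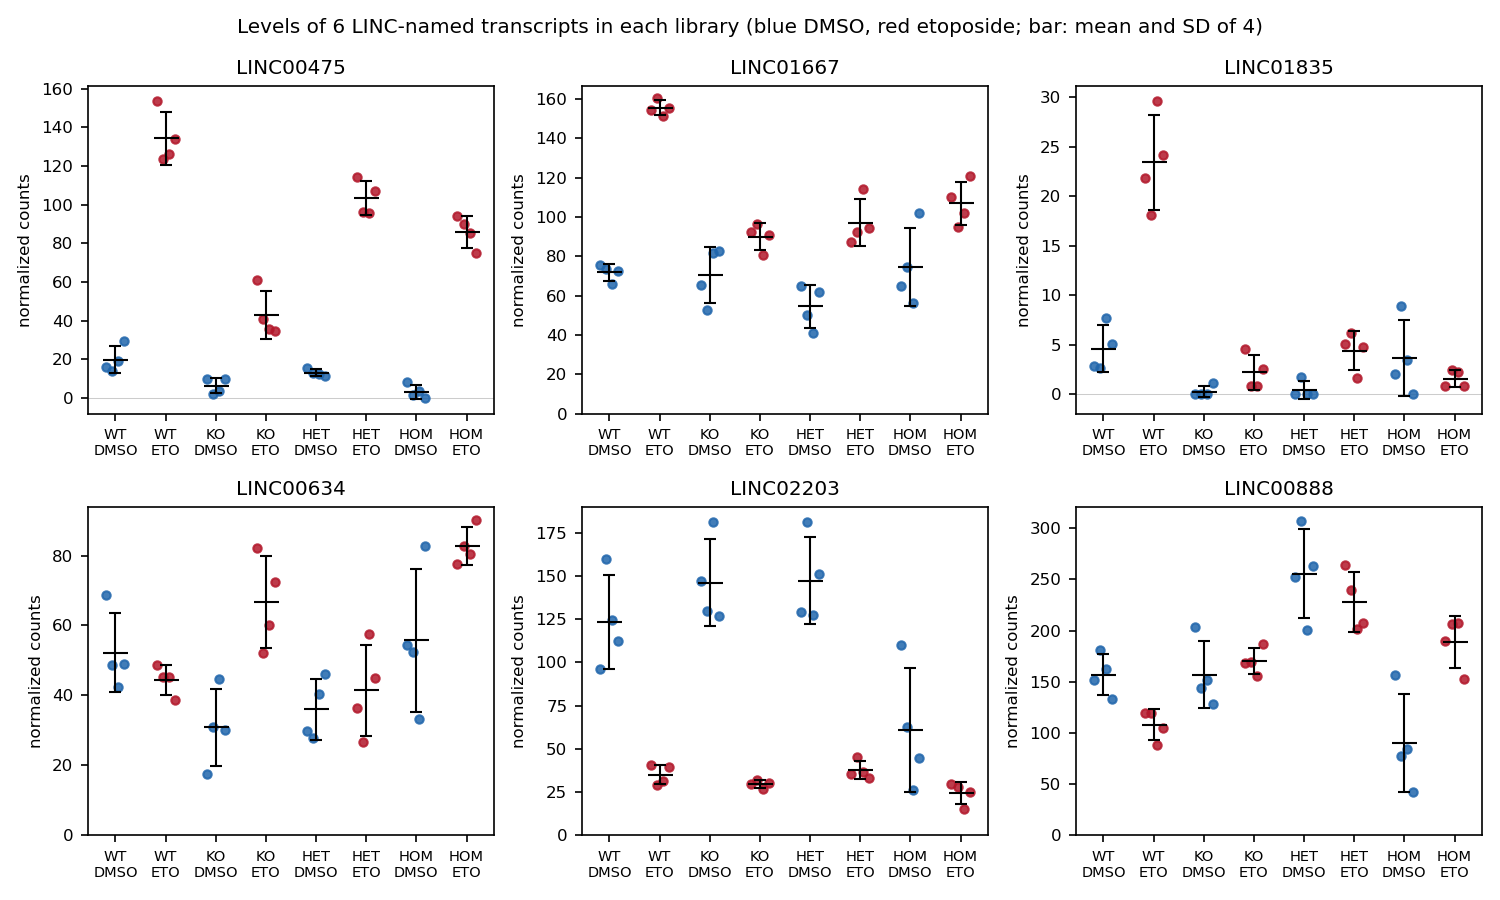
Normalized counts (vertical axes, linear) of 6 LINC-named transcripts in each library of the 8 groups (horizontal axes), with blue points for DMSO, red points for etoposide, and a bar with the mean and SD of 4 libraries. The mean of LINC00475 rises and that of LINC02203 falls in all genotypes, with overlapping HOM groups for LINC02203. LINC01835 reaches 18.1 to 29.6 in WT with etoposide and stays at 8.96 or below elsewhere.

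In KO cells 2 transcripts rose and 1 fell, or 16.7% of the members, where 32.6% of all genes passed (18.1% higher and 14.5% lower). The members' median was 0.17, against 0.05 for all genes. LINC00475 rose in the KO cells as well, from 9.73, 2.14, 3.80 and 10.0 normalized counts to 60.9, 40.8, 35.7 and 34.5, without overlap (2.72 ± 0.42, adjusted p 5.10e-06). LINC02203 fell from 147, 129.6, 182 and 127 to 29.5, 32.1, 26.8 and 30.3 (-2.25 ± 0.27, adjusted p 6.54e-08), and the groups again do not overlap.

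LINC00634, the SMIM45 gene (chr22:41952165-41958933, plus strand), rose in KO cells and not in WT cells. KO cells had 17.5, 31.1, 44.7 and 30.1 normalized counts in DMSO and 82.0, 52.1, 60.1 and 72.3 with etoposide, so that every treated library lies above every control (1.14 ± 0.26, adjusted p 6.28e-04). WT cells had 68.6, 48.7, 42.5 and 49.0 in DMSO and 48.7, 45.2, 45.3 and 38.5 with etoposide, which overlap (-0.21 ± 0.26, adjusted p 0.524). CENPM, a centromere protein gene 5001 bp away on the opposite strand, fell by 1.79 on the log2 scale in WT, while its change of -0.30 in KO did not pass.

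Between KO and WT cells the response difference passed for 2 members, where 15.2% of all genes passed (7.11% higher and 8.13% lower). It was 1.35 ± 0.36 for LINC00634 (adjusted p 8.24e-03) and -0.74 ± 0.23 for LINC01667 (adjusted p 2.28e-02). LINC01667 had 65.2, 52.5, 81.7 and 82.4 normalized counts in KO DMSO and 92.2, 96.4, 80.4 and 90.8 in KO ETO, which overlap, unlike the same groups in WT (0.37 ± 0.16, adjusted p 6.49e-02). Its response difference no longer passed without library 3 or 4 of KO in DMSO or library 3 of KO in ETO (-0.69 to -0.66). It also missed on the deposited scale (-0.57), with total-count scaling (-0.66) and with quantile normalization (-0.68). For LINC00475 the response difference was -0.03 ± 0.59 and for LINC02203 -0.48 ± 0.38, with adjusted p 0.986 and 0.455. These misses do not show that the 2 genotypes responded alike.

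In DMSO 3 members were lower in KO than in WT and 0 higher, or 16.7%, where 8.35% of all genes passed (2.75% higher and 5.59% lower). LINC00475 differed by -1.63 ± 0.42 (adjusted p 7.84e-03), and the highest KO library, at 10.0 normalized counts, lies under the lowest WT library, at 14.2. Without library 2 of KO in DMSO, the lowest, the difference was -1.28 and did not pass, and on the deposited scale it was -0.58. LINC00634 differed by -0.79 ± 0.26 (adjusted p 3.95e-02), a call lost without any of libraries 1, 2 and 4 of either group (-0.82 to -0.55), with no filter, with the compared groups alone, with array weights (-0.67), with quantile normalization (-0.75) and on the deposited scale (-0.44). LINC01835 had 1 recovered count over the 4 KO DMSO libraries, so no fold is given.

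With etoposide 2 members were higher in KO than in WT and 4 lower, or 33.3%, where 26.7% of all genes passed (11.7% higher and 15.0% lower). LINC01835, which the rule took from WT ETO, is counted among the 4. LINC00475 was again lower (-1.65 ± 0.42, adjusted p 2.14e-03), by nearly the same log2 distance as in DMSO. Its level in treated KO cells, 43.0 ± 12.2 normalized counts, lies above untreated WT cells (19.8 ± 6.87) and below treated WT cells (134 ± 13.6; SD, n = 4). LINC01667 was lower in KO (-0.79 ± 0.16, adjusted p 2.67e-04), with every KO library under every WT library. LINC01869, the transmembrane protein pseudogene, differed by -0.96 ± 0.35, but its groups overlap and the call was lost without libraries 1, 3 or 4 of WT or 3 or 4 of KO in ETO (-0.92 to -0.61), with no filter, with quantile normalization (-0.90) and on the deposited scale (-0.43).

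The members that were higher in treated KO cells were LINC00869 and LINC00888. LINC00869 (chr1:149606334-149679523, plus strand), which overlaps the pseudogene FAM91A2P, had 554, 517, 555 and 496 normalized counts in WT ETO and 892, 818, 876 and 742 in KO ETO (0.65 ± 0.12, adjusted p 1.05e-04). The groups do not overlap. As 48.8% of its words occur in other measured genes, 26.9% in the overlapping FAM91A2P, the gene that gave the reads is uncertain. LINC00888 (chr3:183447608-183456013, plus strand), the small nucleolar RNA host, had 119, 119, 88.0 and 105 in WT ETO and 169, 169, 156 and 187 in KO ETO. Its difference of 0.66 ± 0.23 (adjusted p 2.15e-02) was lost without library 3 of WT or library 4 of KO in ETO (0.57 to 0.61), on the deposited scale (0.52) and with total-count scaling (0.74, adjusted p 8.10e-02).

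In HET cells LINC00888 stood higher than in WT in both treatments. HET DMSO libraries had 253, 307, 200.3 and 263 normalized counts, against 152, 181, 162 and 133 in WT DMSO, with no overlap (0.69 ± 0.23, adjusted p 1.43e-02; 0.60 and not passing without library 2 of HET, 0.51 with quantile normalization, 0.58 on the deposited scale). HET ETO libraries had 264, 239.9, 201 and 207, more than any WT ETO library (1.07 ± 0.23, adjusted p 4.89e-04). In DMSO 1 member was higher and 2 lower in HET than in WT, or 16.7%, where 32.5% of all genes passed (16.1% higher and 16.4% lower). The lower ones were LINC01835, with 2 recovered counts over the HET DMSO libraries, and LINC01869 (-1.02 ± 0.35, adjusted p 2.01e-02), whose call was lost without library 4 of WT or library 2 of HET in DMSO (-0.94 to -0.92), with quantile normalization (-0.82) and on the deposited scale (-0.39).

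With etoposide 1 member was higher and 3 lower in HET than in WT, or 22.2%, where 23.3% of all genes passed (10.1% higher and 13.2% lower). LINC01667 was lower (-0.68 ± 0.16, adjusted p 1.67e-03), with 87.2, 92.3, 114 and 94.5 normalized counts, all under the WT libraries. This call was lost on the deposited scale (-0.52) and with total-count scaling (-0.44). LINC01869 differed by -0.92 ± 0.35 (adjusted p 4.30e-02), a call lost without libraries 1, 3 or 4 of either group (-0.96 to -0.70). It was also lost with the replicate block (-0.92, adjusted p 5.43e-02), with no filter, with total-count scaling (-0.69) and on the deposited scale (-0.43). LINC01835, counted among the 3 lower, was taken by the rule from WT ETO and is described above.

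Etoposide raised 4 members in HET cells and lowered 1, or 27.8%, where 30.2% of all genes passed (17.5% higher and 12.7% lower), with medians of 0.27 over the members and 0.01 over all genes. LINC00475 rose from 15.7, 13.0, 12.2 and 11.5 normalized counts to 114, 96.4, 95.8 and 107 (2.89 ± 0.42, adjusted p 1.67e-06), and LINC01667 rose by 0.84 ± 0.16 (adjusted p 1.11e-04; 0.57 and not passing on the deposited scale). LINC02203 fell from 129, 181, 128 and 151 to 35.6, 45.1, 36.5 and 33.1 (-1.94 ± 0.27, adjusted p 6.67e-07). LINC02495 rose by 1.0 ± 0.28 (adjusted p 4.53e-03; lost on the deposited scale at 0.39 and with quantile normalization at 0.44), and LINC01835 had means of 0.434 in DMSO and 4.39 with etoposide. Between HET and WT cells the response difference passed for 0 members by limma, where 4.75% of all genes passed (2.97% higher and 1.78% lower). At an unadjusted p under 0.05 there was 1, and limma-voom on the recovered counts also gave 0.

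**Figure D3:**
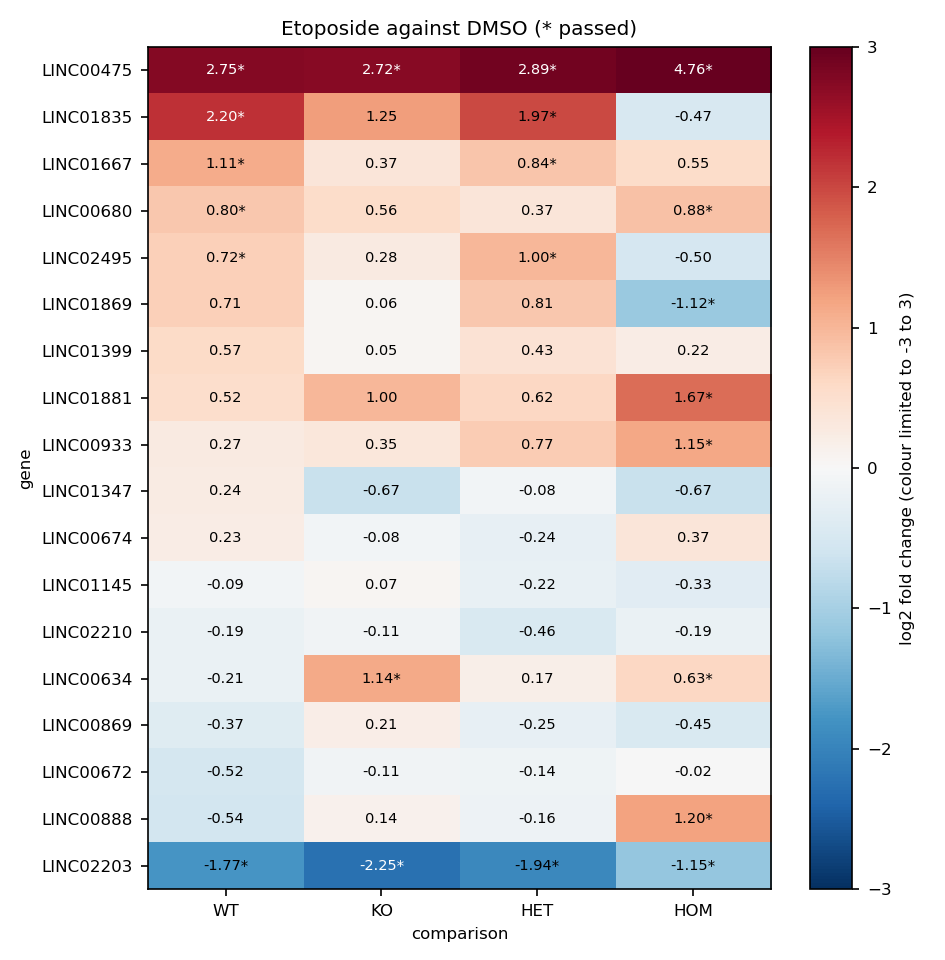
Log2 fold change of etoposide against DMSO (number and colour, colour limited to -3 to 3) for the 18 transcripts (vertical axis) in the 4 genotypes (horizontal axis), with an asterisk where a change passed. LINC00475 and LINC02203 carry an asterisk in all 4 columns, LINC00634 in KO and HOM.

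HOM cells carry A347D in both alleles. LINC00933, whose threshold libraries all had etoposide, is counted among the 6 rises below. With all 4 HOM DMSO libraries 6 members rose after etoposide and 2 fell, or 44.4%, where 65.6% of all genes passed (37.2% higher and 28.5% lower). Without libraries 2 to 4 of that group, where the lone library is assumed to vary like the other groups, 3 rose and 1 fell, where 38.2% of all genes passed (20.9% higher and 17.3% lower). Those 4 were LINC00475 (3.21 ± 0.44, adjusted p 1.55e-06), LINC00680 (0.64 ± 0.15, 1.00e-03), LINC01667 (0.70 ± 0.22, 1.02e-02) and LINC02203 (-2.18 ± 0.29, 7.76e-07). With all libraries the values were 4.76 ± 0.42, 0.88 ± 0.12, 0.55 ± 0.16 and -1.15 ± 0.27, and that of LINC01667 fell short of 1.5-fold. LINC00634, LINC00888, LINC00933, LINC01869 and LINC01881 passed when all 4 libraries were used and not without the 3. LINC00634 hardly moved, from 0.63 ± 0.26 to 0.59 ± 0.37 with the larger error of a lone library, while LINC00888 went from 1.20 to 0.26, LINC00933 from 1.15 to 0.57, LINC01869 from -1.12 to -0.47 and LINC01881 from 1.67 to 0.26. With all libraries, LINC02203 did not pass with total-count scaling (-0.17), nor LINC00680 with quantile normalization (0.25, adjusted p 6.70e-02). The HOM groups of LINC02203 overlap, with 26.3 normalized counts in library 3 of DMSO and 29.3, 27.6, 15.3 and 24.7 with etoposide.

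The members show how HOM DMSO libraries 2 to 4 differ from library 1. LINC00475 had 8.39 normalized counts in library 1 and 1.49, 3.50 and 0 in the others, and 94.2, 90.1, 85.1 and 74.8 with etoposide. LINC00888 had 156 in library 1 and 77.7, 84.1 and 42.5 in the others, and LINC02203 had 110.1 and then 62.7, 26.3 and 44.6. In these 3 genes library 1 is the highest of its group. LINC00869 ran the opposite way in normalized counts, with 672 in library 1 and 1032, 1057 and 1368 in the others, as did LINC01869, with 23.1 and then 28.4, 47.3 and 59.5. Before scaling, LINC00869 had 641, 691, 603 and 644 recovered counts in libraries 1 to 4, so its rise is not in those counts. LINC01869 had 22, 19, 27 and 28, whereas LINC00888 fell before scaling too, with 149, 52, 48 and 20. Scaling divided the counts of libraries 1 to 4 by 0.954, 0.670, 0.571 and 0.471. The mitochondrial share and the summed normalized counts given above also differ between library 1 and libraries 2 to 4. Within libraries 2 to 4 both rise in order, as do LINC00869 and LINC01869. LINC00475, LINC00888 and LINC02203 do not change steadily over those libraries. The part of the share and the sum in the result was not tested.

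Against WT in DMSO, 2 members were higher and 5 lower in HOM, or 38.9%, where 47.6% of all genes passed (20.0% higher and 27.6% lower). Without libraries 2 to 4 limma gave 0, where 4.54% of all genes passed (1.03% higher and 3.51% lower). LINC00475 then differed by -1.10 ± 0.44 (adjusted p 0.172) in place of -2.65 ± 0.42, and LINC02203 by -0.14 ± 0.29 in place of -1.17 ± 0.27. LINC00888 differed by 0.00 ± 0.23 in place of -0.93 ± 0.23. LINC01869 differed by 0.34 in place of 0.99, LINC02495 by 0.41 in place of 0.71 and LINC01881 by 0.41 in place of -1.0. LINC00674 kept most of its difference (-0.65 ± 0.22, adjusted p 7.59e-02, in place of -0.73 ± 0.16). With total-count scaling 556 genes were higher and 7708 lower, in place of 3371 and 4641, and with the compared groups alone 665 and 494.

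With etoposide, where no HOM library stood apart, 2 members were higher and 2 lower in HOM than in WT, or 22.2%, where 28.6% of all genes passed (14.0% higher and 14.7% lower). The 2 lower include LINC01835, which the rule took from WT ETO. LINC00634 had 77.6, 82.8, 80.5 and 90.1 normalized counts in HOM, above all WT libraries (0.89 ± 0.26, adjusted p 6.34e-03; 0.58 and not passing on the deposited scale). LINC00888 had 189.9, 206, 207 and 152, also above all WT libraries (0.80 ± 0.23, adjusted p 5.31e-03). LINC00674 (chr17:68101908-68115518, plus strand) was lower (-0.58 ± 0.16, adjusted p 4.92e-03), a difference at the 1.5-fold limit that was lost without library 1, 2 or 4 of WT or library 2 or 3 of HOM in ETO (-0.58 to -0.54), with a pseudocount of 5 (-0.55), on the deposited scale (-0.38) and with total-count scaling (-0.37, adjusted p 0.178). SMURF2, a ubiquitin ligase gene that shares 12.1% of its words, was lower by more (-1.54 ± 0.21). LINC00475, at 86.1 ± 8.35 against 134 ± 13.6 in WT (SD, n = 4), did not pass (-0.64 ± 0.42, adjusted p 0.244). Yet every HOM library (74.8 to 94.2) lies under every WT library (123 to 154). The SE is pooled over all groups, including HOM in DMSO with 0 to 8.39. This miss does not show that the 2 genotypes had the same level.

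Between HOM and WT cells the response difference passed for 6 members, where 50.2% of all genes passed (26.2% higher and 23.9% lower), and without libraries 2 to 4 for 2, where 18.4% of all genes passed (8.97% higher and 9.48% lower). LINC00888 was 1 of the 2, at 0.80 ± 0.27 (adjusted p 3.41e-02) in place of 1.73 ± 0.32. In WT cells its etoposide change was -0.54 ± 0.23 (adjusted p 5.16e-02). The other was LINC01835, which the rule took from WT ETO. For LINC00475 the difference was 0.46 ± 0.53 (adjusted p 0.589) in place of 2.01 ± 0.59, and with all libraries it was lost on the deposited scale (0.38). LINC00634 stood at 0.80 in place of 0.84, LINC01869 at -1.18 in place of -1.84 and LINC02495 at -0.92 in place of -1.22, none of which passed.

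**Figure D4:**
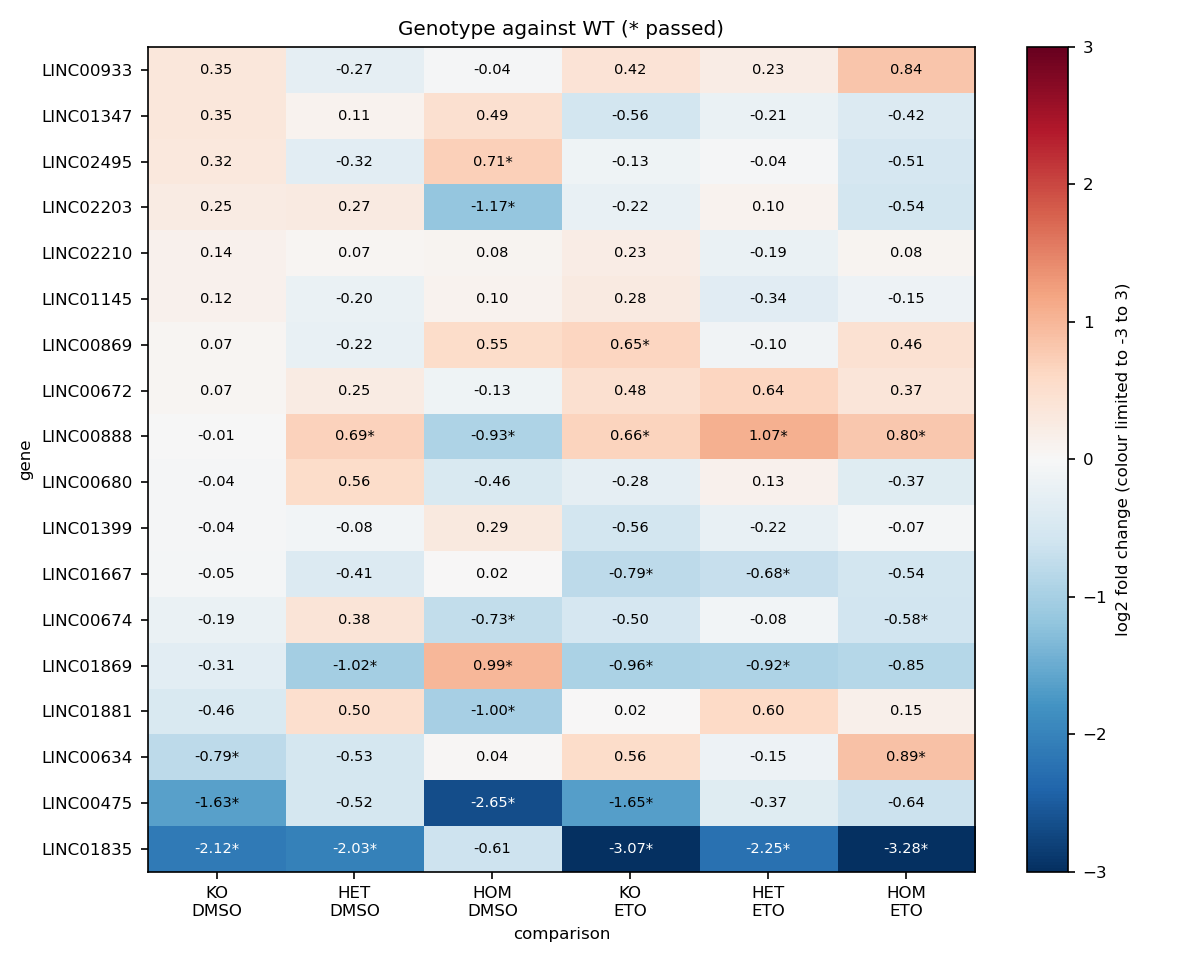
Log2 difference of KO, HET and HOM from WT (number and colour, colour limited to -3 to 3) for the 18 transcripts (vertical axis) in DMSO and in etoposide (horizontal axis), with an asterisk where a difference passed and all 4 libraries of HOM in DMSO included. LINC00888 carries an asterisk in all 3 etoposide columns, with 0.66, 1.07 and 0.80.

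The transcripts that passed in none of the comparisons were LINC00672, LINC01145, LINC01347, LINC01399 and LINC02210. Over the 32 libraries LINC01145 ranged from 339 to 601 normalized counts and LINC02210 (chr17:45620328-45655156, plus strand) from 151 to 248. LINC01399 ranged from 15.2 to 42.7, LINC01347 from 7.38 to 47.3 and LINC00672 from 8.67 to 27.4. LINC01399 came close in WT after etoposide (0.57 ± 0.22, adjusted p 3.09e-02) and in KO against WT with etoposide (-0.56 ± 0.22, adjusted p 4.09e-02), both short of 1.5-fold. LINC02210 had a smaller change in HET after etoposide with a lower p (-0.46 ± 0.09, adjusted p 1.86e-04). LINC00933, with 1.75 to 20.7, reached the threshold in 8 libraries, all with etoposide, so its response follows from the rule.

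The nearest coding gene that was tested was set beside each member. Over the 18 pairs the etoposide changes of member and neighbour had the same sign in 10 pairs in WT, 8 in KO, 10 in HET and 7 in HOM. The correlation across the 18 pairs, which share libraries and are not replicates, was 0.49 in WT, 0.44 in KO, 0.61 in HET and 0.19 in HOM (Pearson). The rank correlation was 0.31, 0.11, 0.38 and -0.02. The pairs include LINC02203 with AC135068.3, which it overlaps on the same strand and which holds 33.6% of its words. They also include LINC01835 with CYP4F2, although the rule took LINC01835 from WT ETO. Correlations without these pairs were not computed.

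The authors' deposited table for KO against WT in DMSO passed the same 3 members at these thresholds, and that for etoposide the same 6. In the authors' deposited table LINC00475 differed by -1.62 in DMSO and by -1.65 with etoposide (adjusted p 1.41e-04 and 2.08e-17). For HOM against WT with etoposide the authors' deposited table passed 6 members, which include the 4 passed here, and LINC00475 was among the others at -0.64 (adjusted p 7.67e-04). That for HOM against WT in DMSO passed 5 of the 7 members passed here with all libraries. LINC01881 (-0.72) and LINC02495 (0.64) did not pass there.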

How the data were processed

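Reads from poly-A libraries were quantified with kallisto against GRCh38 (hg38) and normalized with DESeq2, per the submitters' processing notes. Their versions, the annotation and the strand setting are not given in the sources used here. In the authors' deposited matrix, expression stands on a log2-like, variance-stabilized scale whose floor is 4.43. The authors' deposited tables give a mean signal per gene, log2 fold changes, a test score and p-values. Inverting the matrix gave normalized counts whose means equal the authors' deposited mean signal within a relative 4.4e-14, and undoing the scaling gave counts whole within 0.01.

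The 16824 genes that reached 10 normalized counts in 4 or more libraries were fitted together, after adding 1 and taking log2, with limma 3.58.1 (trend, 32 libraries, 1 mean per group, R 4.3.3), with two-sided Benjamini-Hochberg adjusted p-values. All 18 members entered through this filter. The SE comes from 1 spread per gene pooled over the 8 groups. A fold change on this scale understates the change of low genes, and 3 reads equal 2.30 to 6.37 normalized counts, which covers counting error only. The script was tested on simulated data.

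The members and lists were chosen with earlier results of these data known. Genes were named by a rule: in each 2-group comparison members that passed with a mean of at least 20 in 1 group and no overlap of replicates, in each response difference those that passed with such a mean, the 10 highest per kb, and LINC00475; other members are named to account for all 18. Positions and transcripts came from GENCODE 29, promoters and current symbols from RefSeq (GRCh38.p14). A comparison list of 36 other named long noncoding RNAs and 1 of 9 tied to p53 matched 0 rows and were not analysed here. Overlapping antisense genes cannot be told apart without the strand setting. No replicate pair was a duplicate: the lowest chi-square per degree of freedom was 1.89. Alternatives were another pseudocount, filters, scalings, weights, fits and scales, the replicate block, and each library left out. A check of the library labels is not reported here.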

Additional observations from a re-analysis of the deposited data

Results flagged for a closer look

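In 11 of 144 groups of 4 libraries, where chance gives about 7.20 (1 in 20), a single library lay far from the others. Higher than the rest were LINC00680 in WT ETO library 2 (249 normalized counts, others 240 to 241), LINC00869 in HET DMSO library 3 (647, others 562 to 574) and in HOM ETO library 2 (796, others 706 to 715), and LINC01145 in HET ETO library 3 (390, others 340 to 345). So were LINC01347 in HOM ETO library 4 (32.3, others 14.6 to 15.8), LINC01881 in HET DMSO library 2 (30.4, others 14 to 15.9) and LINC02210 in HOM DMSO library 4 (248, others 203 to 209). LINC01835 had 1.11 in KO DMSO library 4 and 1.74 in HET DMSO library 2, with 0 in the others; these are 1 and 2 recovered reads, and with 3 libraries at 0 any value above 0 stands apart, so that 9 remain without them. Lower than the rest were LINC01145 (376, others 467 to 482) and LINC01869 (20.1, others 33.1 to 35.7), both in WT ETO library 2.

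The etoposide response differed from that of WT cells, by the test of the difference, for LINC00634 (1.35) and LINC01667 (-0.74) in KO. In HOM it differed for LINC00475 (2.01), LINC00634 (0.84), LINC00888 (1.73), LINC01869 (-1.84) and LINC02495 (-1.22). Without HOM DMSO libraries 2 to 4, that of LINC00888 also passed (0.80), and those of LINC00475 (0.46), LINC00634 (0.80), LINC01869 (-1.18) and LINC02495 (-0.92) did not. LINC01835 is left out here because WT ETO chose it. That of LINC00634 no longer passed after leaving out any of 13 single libraries of the 16 compared, with values of 0.62 to 0.89.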

How the results depend on the processing

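Of 57 passing member results, 22 passed under every alternative run on them (for 5 of these, all LINC01835, the stricter filter left the gene out) and 35 were lost under at least 1. Those 5 all use WT with etoposide, the group through which the rule took LINC01835. Among the lost, LINC00634 in the HOM response with quantile normalization (-0.01) and, without HOM DMSO libraries 2 to 4, LINC00888 in HOM against WT in DMSO (0.00) came to about 0, and LINC01881 in the latter comparison had the opposite sign (0.41) and did not pass. Where an alternative changed a number of passing members, the cause was not tested. Of the 57 results, 28 were lost on the deposited variance-stabilized values, 15 with quantile normalization, 10 with total-count scaling and 9 each with array weights and with the compared groups alone. On the deposited values, which compress low counts, the number was 2 for the HET response (5 as reported), 4 for HOM (8), 0 for KO against WT in DMSO (3), 0 for HET (3) and 3 for HOM (7). It was 2 for HET and 2 for HOM with etoposide (4 each), 1 for the KO and 3 for the HOM response difference (2 and 6). Total-count scaling gave 7 for the KO response (3), 8 for HET, 5 for HET in DMSO and 13 for the HOM response difference. Quantile normalization gave 3 for the HET response, 1 for HET in DMSO and 4 for HOM in DMSO. Array weights gave 5 for the KO response, 4 for HOM in DMSO and 9 for HOM with etoposide. Limma-voom on recovered counts, chosen after seeing the data, gave 5 for the KO response and 7 for HOM with etoposide. Fitting the compared groups alone gave 1 for HOM in DMSO. Without HOM DMSO libraries 2 to 4 the numbers were 4 for the HOM response, 0 for HOM in DMSO and 2 for the response difference.

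Leaving out 1 library at a time gave 3 to 5 passing members for the KO response (5 without library 2 or 3 of KO in ETO), 1 to 3 for KO in DMSO (1 without its library 2) and 1 to 4 for HET in DMSO (1 without its library 2). It gave 3 to 8 for HOM in DMSO (3 without its library 4), 1 to 3 for the KO response difference (1 without library 4 of KO in DMSO or library 3 of KO in ETO) and 5 to 10 for the HOM difference (10 without library 1 of HOM in DMSO).

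Total-count scaling moved the median log2 change of all genes from 0.05 to 0.28 in WT, 0.05 to 0.35 in KO, 0.01 to 0.20 in HET and 0.16 to 1.13 in HOM, and that of HOM against WT in DMSO from -0.07 to -0.58. Genes higher and lower went from 3389 and 2501 to 4389 and 1485 in WT, from 3039 and 2444 to 4805 and 1189 in KO, from 2937 and 2141 to 3753 and 1266 in HET, and from 6256 and 4788 to 10595 and 1010 in HOM. For HOM against WT in DMSO they went from 3371 and 4641 to 556 and 7708, and for the HOM response difference from 4410 and 4028 to 8238 and 914. They went from 2710 and 2759 to 4169 and 1613 for HET in DMSO, from 1692 and 2220 to 2743 and 1251 for HET with etoposide, and from 2348 and 2467 to 3305 and 1572 for HOM with etoposide. The compared groups alone gave 665 and 494 for HOM in DMSO, and the deposited scale 296 and 583 for KO in DMSO (463 and 941 as reported). For the HET response difference (500 and 299) array weights gave 973 and 757, and the compared groups alone 704 and 496.

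The replicate number of the labels did not pair the libraries: in none of the comparisons were all 4 same-numbered correlations above 0.1, and at most 2 of 4 libraries correlated best with their own number. With the replicate block the number of passing members stayed at 6 for WT, 3 for KO, 5 for HET and 8 for HOM responses, and went from 4 to 3 for HET with etoposide and from 6 to 5 for the HOM response difference. A member threshold of 6.0 would keep 13 of the 18. The count models listed as alternatives (edgeR and DESeq2) were not run; limma-voom was run on the recovered counts instead.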
